A study of Homo sapiens with 6 samples.

Results

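The EGF family genes followed here were the ligand genes HBEGF, TGFA, EREG, AREG, BTC and NRG1, the receptor genes EGFR, ERBB2 and ERBB3, and ERRFI1, which encodes an inhibitor of these receptors. They were taken by gene name from a table of read counts, where each of the 10 had a single row among 57773 genes. HepG2, an established human liver tumour cell line grown in MEM with serum, supplied the RNA. According to the study's methods for TGFβ treatment, the cells were washed and changed to MEM without serum before either agent was added, so both groups were free of serum during the treatment. A vehicle group of 3 cultures was compared with a TGFβ group of 3 cultures, which received human recombinant TGFB1 ligand at 5 ng/mL, and both were collected after 3 h. All cultures were of the same cell line, so the spread between them is not that between donors. The study sequenced these RNAs to find genes that respond to TGFβ.

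EGF family ligands are made as membrane-anchored precursors and are released by cell surface proteases, mainly ADAM17. HBEGF, TGFA, EREG, AREG and BTC bind EGFR, whereas NRG1 binds ERBB3 or ERBB4, and bound receptors pair and phosphorylate each other. ERBB2 has no known ligand and acts as the preferred partner of the other receptors, and ERBB3 has little kinase activity of its own but recruits PI3 kinase strongly. ERRFI1, also called MIG6, binds the kinase domains of activated receptors and blocks them, and its gene is itself switched on by growth factor signals. Hepatocytes use EGFR during liver regeneration, and TGFβ and EGF signals have opposing effects on hepatocyte growth.

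Gene-assigned reads ranged from 60815385 to 100099136 over the 6 libraries. The label of liver cells was checked with markers: the summed level of 10 hepatocyte genes lay between 29730 and 33970 CPM (reads scaled to a fixed library size) with vehicle and between 28150 and 34100 CPM with TGFβ. Of 4 endothelial markers, 3 were found in the table, PECAM1 being absent. KDR had no read in any culture, while CDH5 was at 0.0929 to 0.130 CPM and VWF at 0.103 to 0.159 CPM. Of 4 leukocyte markers, PTPRC was at 0 in all cultures but TGFβ culture 3, which had 0.0137 CPM. The others had reads in every culture, with CD68 at 34.6 to 40.5 CPM and CD14 at 1.59 to 3.42 CPM. LYZ was between 949 and 1423 CPM over all cultures (log2 fold change -0.35, edgeR FDR 0.106, and 0.0157 with the culture number as a block). The summed level of 6 fibroblast or stellate cell markers was 13.6 to 15.0 CPM with vehicle and 23.3 to 34.7 CPM with TGFβ. Nearly all of it came from COL1A1 (edgeR FDR 0.193, and 0.00806 with the culture number as a block) and PDGFRB (edgeR FDR 0.0582, and 7.25e-06 with the block), the only 2 of the 6 with enough reads for the test, with DCN at no more than 0.0845 CPM. Its part in the results below was not tested. In such bulk samples a change in the number of cells of a type and a change in RNA per cell cannot be told apart.

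Within a culture, genes can be compared only per length, so the deposited RPKM was used for the order of the levels (reads per kilobase of the coding length listed for the gene, scaled by library size). ERRFI1 was the highest of the 10, with 45.8 ± 4.34 RPKM with vehicle (SD, n = 3), followed by ERBB3 with 27.5 ± 2.63 RPKM and ERBB2 with 15.3 ± 1.65 RPKM. EGFR, the receptor for most of the ligands, was far lower, with 0.909 ± 0.106 RPKM. The values of these 4 genes did not overlap. The listed coding length was 12961 bases for EGFR and 10321 for ERBB2, and the levels depend on these lengths.

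Among the ligands, TGFA had the highest level, with 4.52 ± 0.195 RPKM with vehicle. HBEGF followed with 0.823 ± 0.0782 RPKM, which overlapped with EGFR, and EREG had 0.325 ± 0.0400 RPKM. AREG had 0.0514 ± 0.0242 RPKM. NRG1, with 0.0193 ± 0.00732 RPKM, and BTC, with 0.0155 ± 0.0143 RPKM, overlapped and were the lowest. The order with TGFβ was the same, apart from HBEGF and EGFR, which changed places and still overlapped.

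**Figure D1:**
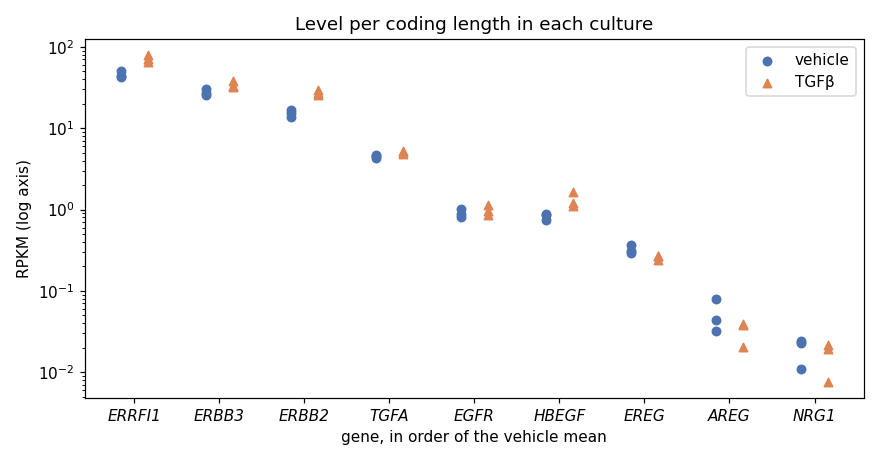
Deposited RPKM (log axis) of 9 of the 10 genes in the 3 vehicle (circles) and 3 TGFβ (triangles) cultures, ordered by the vehicle mean. BTC is left out because it was at 0 in 3 cultures. ERRFI1, ERBB3 and ERBB2 stand above 13 RPKM in every culture and AREG and NRG1 below 0.08 RPKM.

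Of the 10 genes, 8 had enough reads for the test and 3 of these, ERBB2, ERRFI1 and ERBB3, rose with TGFβ, while 0 fell (edgeR's quasi-likelihood test, FDR under 0.05 over 22747 genes). Over all tested genes 3.11% rose and 1.01% fell. At an unadjusted P under 0.05 in the edgeR test, HBEGF and TGFA were higher as well and none of the 8 was lower. At that threshold 1976 of the 22747 tested genes were higher and 1131 lower. At an FDR under 0.05, DESeq2 and limma-voom also called 0 members lower, against 382 and 212 of all genes. With the culture number as a block, 5 of the 8 rose, HBEGF and TGFA being added, while the shares over all tested genes went up to 8.08% higher and 3.75% lower. The median log2 fold change of the 8 genes was 0.28, against -0.01 over all tested genes. In 5 of the 8 genes the lowest TGFβ culture exceeded the highest vehicle culture, as in 10.4% of all tested genes, and in EREG the order was the opposite, as in 8.23%. For such a gene the exact permutation test, two-sided, gives P = 0.1, the smallest that 3 cultures against 3 allow.

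**Figure D2:**
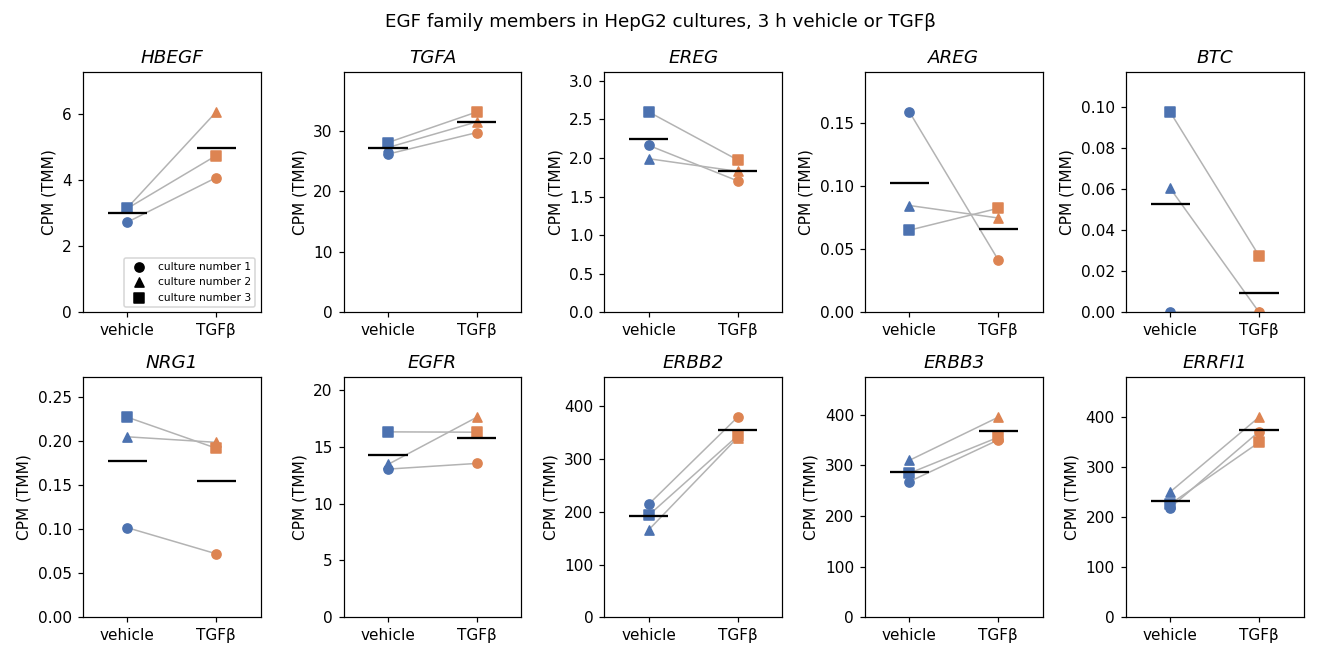
CPM after TMM scaling of the 10 genes in each culture, on linear axes from 0, with lines joining cultures of the same number and bars at the group means (n = 3). ERBB2, ERBB3, ERRFI1, HBEGF and TGFA are higher in all 3 TGFβ cultures, and EREG is lower in all 3. EGFR, AREG, BTC and NRG1 overlap.

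ERBB2 (ENSG00000141736, chr17:37844167-37886679, plus strand, hg19 as for all genes) encodes the receptor that signals without a ligand of its own. Its levels were 214, 166 and 194 CPM in vehicle cultures 1, 2 and 3, and 380, 341 and 344 CPM in TGFβ cultures 1, 2 and 3. The groups were far apart, and the lowest TGFβ culture was above the highest vehicle culture. The mean rose from 191 ± 24.3 to 355 ± 21.4 CPM (SD, n = 3), a 1.86-fold rise with a 95% interval from 1.59 to 2.16 (log2 fold change 0.89, standard error 0.10, edgeR FDR 0.000855). Within cultures 1 and 2, whose vehicle and TGFβ libraries shared a lane according to the labels, the log2 ratios were 0.82 and 1.04, and it was 0.83 for culture number 3, run on different lanes. ERBB2 ranked 292 by fold change among the 707 genes that rose. It kept its call when any single culture was left out, with an FDR of at most 0.00872.

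ERRFI1 (ENSG00000116285, chr1:8064464-8086368, minus strand) encodes the feedback inhibitor of the receptors. Vehicle cultures 1, 2 and 3 had 218, 250 and 226 CPM, and TGFβ cultures 1, 2 and 3 had 370, 399 and 349 CPM. All TGFβ cultures lay well above all vehicle cultures. The rise from 231 ± 16.5 to 373 ± 25.2 CPM was 1.61-fold, with a 95% interval from 1.42 to 1.83 (log2 fold change 0.69, standard error 0.08, edgeR FDR 0.00133). The log2 ratios of same-numbered cultures were alike, at 0.76, 0.68 and 0.63. The call held without any single culture, with an FDR of at most 0.0142.

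ERBB3 (ENSG00000065361, chr12:56473641-56497289, plus strand) encodes the partner that carries the PI3 kinase docking sites. Its levels were 268, 310 and 284 CPM with vehicle and 350, 395 and 355 CPM with TGFβ. The groups did not overlap, although the gap was smaller than for ERBB2. The mean rose from 287 ± 21.1 to 367 ± 24.5 CPM, or 1.28-fold with a 95% interval from 1.12 to 1.45 (log2 fold change 0.35, standard error 0.08, edgeR FDR 0.0442). This call was close to the threshold: it was lost when any single culture was left out (vehicle cultures 1, 2 and 3 and TGFβ cultures 1, 2 and 3, FDR from 0.0653 to 0.209) and with total-count scaling (FDR 0.101), with the log2 fold change between 0.28 and 0.40. With the block the FDR was 0.000417. RP11-603J24.9, which overlaps ERBB3 over 2175 bp, had a log2 fold change of 0.01 (FDR 0.987).

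EGFR (ENSG00000146648, chr7:55086714-55324313, plus strand) had 13.0, 13.4 and 16.3 CPM with vehicle and 13.5, 17.6 and 16.3 CPM with TGFβ. The groups overlapped over most of their range. The fold change was 1.11, with a 95% interval from 0.909 to 1.35 (edgeR FDR 0.735), so a rise as large as that of ERBB2 lies outside the interval, while a smaller change in either direction lies within it. EGFR-AS1, listed from 55247443 to 55256627 inside EGFR and read from the other strand, fell. It had 7.11, 7.64 and 7.39 CPM with vehicle and 5.01, 5.20 and 4.91 CPM with TGFβ, a 0.683-fold change (log2 fold change -0.55, standard error 0.12, FDR 0.0264). The library kit does not mark strand and the counting rule is not given, so reads of this antisense gene and of EGFR cannot be told apart in the shared 9185 bp.

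Ratios between genes of the same culture do not depend on how libraries are scaled. In all, 8 such ratios were taken, chosen after the values were seen, and none can pass the threshold with 3 cultures against 3. The receptor shares given last were not among these 8 and were left out of the adjustment. ERBB2 to ERBB3, per length, was 0.671, 0.449 and 0.571 with vehicle and 0.909, 0.724 and 0.813 with TGFβ, without overlap (exact permutation test, two-sided, P = 0.1, adjusted P = 0.133). ERBB2 to EGFR went from 17.0 ± 3.17 to 28.7 ± 5.76 and ERRFI1 to EGFR from 50.8 ± 7.43 to 73.8 ± 9.69, each with the same exact permutation P (n = 3). EGFR-AS1 to EGFR, in reads, was 0.523 ± 0.0611 and 0.323 ± 0.0414 (n = 3, exact permutation P = 0.1). ERBB3 to EGFR overlapped between the groups (exact permutation P = 0.3). ERRFI1 to the sum of the 3 receptor genes was 1.05 ± 0.0731 with vehicle and 1.14 ± 0.0458 with TGFβ, which overlapped (n = 3, exact permutation P = 0.2). Of the summed receptor RPKM, ERBB2 held 35.1% ± 4.51 with vehicle and 44.1% ± 2.85 with TGFβ, ERBB3 62.8% ± 4.51 and 54.3% ± 2.67, and EGFR 2.08% ± 0.259 and 1.56% ± 0.200.

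The genes around ERBB2 were examined because ERBB2 overlaps PGAP3 over 8884 bp and MIEN1 over 1931 bp, and STARD3 and GRB7 were added after their values were seen. GRB7 encodes an adaptor that binds ErbB receptors and STARD3 a sterol transport protein. None of these genes passed the threshold. Their log2 fold changes were 0.16 for STARD3 (FDR 0.564), 0.18 for PGAP3 (FDR 0.656), 0.11 for MIEN1 (FDR 0.751) and 0.04 for GRB7 (FDR 0.889). The upper ends of their 95% intervals, at most 0.45, were below the lower end for ERBB2, 0.67. ERBB2 to GRB7, per length, was 1.48, 1.15 and 1.28 with vehicle and 2.37, 2.39 and 2.28 with TGFβ, without overlap (exact permutation P = 0.1). MIR4728, inside ERBB2, had at most 9 reads in a culture.

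**Figure D3:**
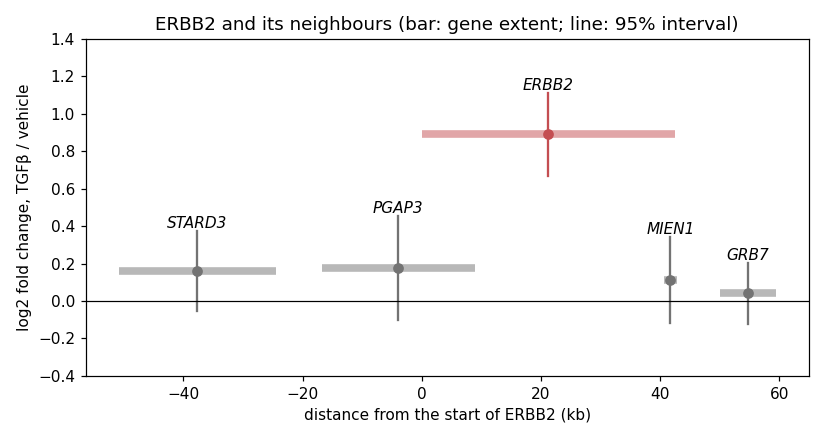
Log2 fold change (TGFβ against vehicle) of ERBB2 and 4 neighbours against distance from the start of ERBB2 in kb. Points are placed at the gene midpoints, vertical lines are 95% intervals and bars show the gene extents. ERBB2 stands at 0.89 and its neighbours between 0.04 and 0.18.

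The ligand HBEGF (ENSG00000113070, chr5:139712428-139726216, minus strand) encodes the heparin-binding ligand that is also the receptor for diphtheria toxin. It had 2.72, 3.15 and 3.13 CPM with vehicle and 4.07, 6.05 and 4.73 CPM with TGFβ, on 193 to 487 reads. The groups did not overlap, and TGFβ culture 2 was the highest. The fold change was 1.65 with a 95% interval from 1.26 to 2.17 (log2 fold change 0.72, standard error 0.18), and it missed the threshold narrowly (edgeR FDR 0.0532). With the culture number as a block HBEGF passed (FDR 0.00354), as it did with DESeq2 (FDR 0.00221), without a filter (FDR 0.0156) and without TGFβ culture 1 (FDR 0.0355). It did not pass under the other 9 of 13 alternatives, among them total-count scaling (FDR 0.0807), limma-voom (FDR 0.0712) and leaving out vehicle culture 1, 2 or 3 (FDR from 0.152 to 0.165, the log2 fold change being at least 0.65). The FDR was highest without TGFβ culture 2, at 0.236 with a log2 fold change of 0.54. HBEGF to TGFA, per length, was 0.171, 0.190 and 0.184 with vehicle and 0.225, 0.316 and 0.235 with TGFβ, without overlap (exact permutation P = 0.1).

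TGFA (ENSG00000163235, chr2:70674412-70781325, minus strand) encodes transforming growth factor α, a ligand of EGFR that is unrelated in structure to TGFβ. Its levels were 26.1, 27.2 and 28.0 CPM with vehicle and 29.7, 31.5 and 33.1 CPM with TGFβ. The groups did not overlap but lay close together. The fold change was 1.16, with a 95% interval from 1.03 to 1.31 (edgeR FDR 0.229). With the block it passed (FDR 0.0342), the log2 ratios of same-numbered cultures being 0.18, 0.21 and 0.24.

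EREG, AREG and BTC lie in a ligand cluster on chromosome 4 together with EPGN and AREGB, from 75174190 to 75719896, a span of 546 kb. EREG (ENSG00000124882, chr4:75230860-75254468) encodes epiregulin and had 2.16, 1.99 and 2.60 CPM with vehicle and 1.70, 1.83 and 1.98 CPM with TGFβ. The TGFβ cultures lay just below the vehicle cultures, and the fold change of 0.816 had a 95% interval from 0.620 to 1.07 (edgeR FDR 0.574). AREG (ENSG00000109321, chr4:75310851-75320726) encodes amphiregulin and had 14, 7 and 4 reads in the vehicle cultures against 4, 6 and 6 in the TGFβ cultures, too few for the test. BTC (ENSG00000174808, chr4:75669969-75719896) encodes betacellulin and was at 0, 5 and 6 reads, and at 0, 0 and 2 after TGFβ, also too few. Fitted without a filter, AREG had an FDR of 0.802 and BTC of 0.601.

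The counts of AREG are uncertain because hg19 holds a near-identical copy, AREGB (ENSG00000205595), from 75480629 to 75490486. Of the windows of 51 bases, the length of a read, in the AREG gene region of GRCh37, 92.8% occur without a mismatch in AREGB. Of those in the longest annotated AREG transcript, 77.1% do. This transcript is spliced and was compared with the unspliced AREGB region, where windows across an exon junction find no match. The 77.1% is therefore a lower bound for the share of the transcript common to both copies. Reads from shared windows align to both copies, and how they were counted is not given. The copy drew 13, 10 and 5 reads under vehicle against 5, 6 and 9 under TGFβ, close to AREG itself. Together both genes drew 53 reads in the vehicle group against 36 in the TGFβ group. Scaled by library size this was a ratio of 0.632, and counting error alone gives it 95% limits of 0.402 and 0.983. Fitted as a sum with the spread between cultures, the log2 fold change was -0.61 (standard error 0.42, FDR 0.643) and did not pass.

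NRG1 (ENSG00000157168, chr8:31496902-32622548, plus strand) encodes the ligand of ERBB3. Only 9, 17 and 14 reads fell on it in the vehicle cultures against 7, 16 and 14 in the TGFβ cultures, and the groups overlapped almost fully. Its fold change of 0.865 had a wide 95% interval from 0.412 to 1.82 (edgeR FDR 0.913). The log2 fold change was -0.21, and 0.15 without TGFβ culture 1.

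**Figure D4:**
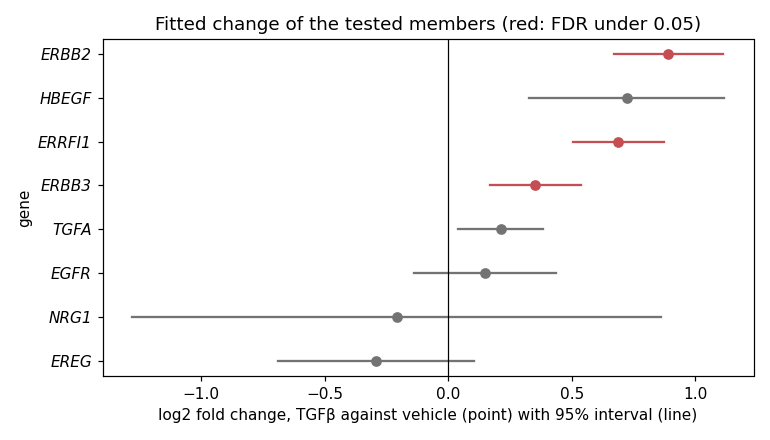
Fitted log2 fold change of the 8 tested genes (points) with 95% intervals (lines), TGFβ against vehicle. ERBB2, ERRFI1 and ERBB3, in red, passed an FDR of 0.05. The interval of HBEGF lies above 0 as well, and that of NRG1 is the widest.

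The promoters of ERBB2, ERRFI1 and HBEGF, the genes with the largest fold changes, are shown from 250 bases before to 50 bases after the RefSeq gene start, in GRCh38.p14 coordinates, which differ from the hg19 positions above. RefSeq promoter sequences matched 8 of the 10 genes by symbol. Capitals mark matches to the AP-1 motif TGANTCA on either strand, and the SMAD core CAGAC was searched on either strand as well.
ERBB2, chr17:39687844-39688143, plus strand: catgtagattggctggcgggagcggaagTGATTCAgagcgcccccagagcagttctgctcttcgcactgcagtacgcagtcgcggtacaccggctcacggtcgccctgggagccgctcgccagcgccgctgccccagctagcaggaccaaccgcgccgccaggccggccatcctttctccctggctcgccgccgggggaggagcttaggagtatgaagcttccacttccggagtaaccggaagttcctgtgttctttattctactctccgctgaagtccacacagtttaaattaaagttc
ERRFI1, chr1:8026260-8026559, minus strand: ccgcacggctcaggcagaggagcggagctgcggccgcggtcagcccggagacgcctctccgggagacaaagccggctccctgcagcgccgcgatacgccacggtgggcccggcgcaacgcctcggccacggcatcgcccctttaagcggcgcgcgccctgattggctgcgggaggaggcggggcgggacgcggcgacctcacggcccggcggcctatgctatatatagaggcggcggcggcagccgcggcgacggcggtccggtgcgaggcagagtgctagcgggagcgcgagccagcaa
HBEGF, chr5:140346554-140346853, minus strand: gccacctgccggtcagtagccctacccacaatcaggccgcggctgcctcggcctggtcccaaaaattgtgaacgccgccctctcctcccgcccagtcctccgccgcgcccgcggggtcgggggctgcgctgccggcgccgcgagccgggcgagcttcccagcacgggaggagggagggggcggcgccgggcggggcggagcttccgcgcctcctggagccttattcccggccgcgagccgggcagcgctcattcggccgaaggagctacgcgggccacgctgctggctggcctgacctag
The ERBB2 window held a single AP-1 match, with its first base at -222 from the gene start, and 7.71% of the 35116 RefSeq promoters hold at least 1. The windows of ERRFI1 and HBEGF held no AP-1 match, and CAGAC was in none of the 3 windows, while 45.3% of all promoters hold it. Of the other members, AREG and EREG had 1 CAGAC match each, starting at -1 and -15 from the gene start. TGFA and EGFR have 2 RefSeq starts each: the TGFA windows held 1 and 2 CAGAC matches, and an EGFR window held 1 CAGAC and 2 AP-1 matches, while the other EGFR window and that of BTC held none. ERRFI1 and HBEGF had a GC content of 74.7% and 75.0% in these windows, and ERBB2 of 60.7%, against a median of 58.7% over all promoters. In hg19 the listed start of ERBB2, 37844167, lies inside PGAP3, which is listed from 37827375 to 37853050. Which start of ERBB2 these cells used was not tested, so its window may not be the promoter behind its reads. No further starts were searched.

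The rest of the pathway was followed in lists drawn from general knowledge, 75 genes in all, of which 68 had enough reads. At an FDR under 0.05, 10 of these rose and 5 fell, against 3.11% and 1.01% of all tested genes, and the median log2 fold change was 0.11. With the block 20 rose and 8 fell, against 8.08% and 3.75% of all tested genes. Without single cultures between 6 and 11 rose: the count was 6 without vehicle culture 2, without vehicle culture 3 or without TGFβ culture 2. In these fits, in the same order, 414, 394 and 439 of all tested genes rose, against 707 with all cultures. Of the remaining ligands and receptor (EGF, EPGN, NRG2, NRG3, NRG4 and ERBB4), only NRG4 had enough reads for the test, with a log2 fold change of -0.41 (FDR 0.472). ERBB4 had 4 reads in vehicle culture 2 and 0 in the other cultures, and EGF between 0 and 11 reads.

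Of 8 genes for ligand shedding, 7 were tested, 2 rose and 0 fell, and with the block 3 rose, where the shares over all tested genes are those just given. FRMD8, which binds the iRhom proteins and keeps them and ADAM17 at the cell surface, rose from 29.5 ± 1.35 to 56.7 ± 0.831 CPM (n = 3), with 30.3, 27.9 and 30.2 CPM in the vehicle cultures and 57.6, 56.3 and 56.0 CPM with TGFβ. This was a log2 fold change of 0.94 (edgeR FDR 9.6e-05). RHBDF1, which encodes an iRhom, the carrier that brings ADAM17 to the surface, rose from 8.39 ± 1.06 to 13.2 ± 2.04 CPM (log2 fold change 0.65, FDR 0.0337), a call lost without vehicle culture 2 or 3 or TGFβ culture 1 or 2 (FDR from 0.115 to 0.165). The related RHBDF2 had a log2 fold change of 0.47 (FDR 0.0536, and 0.000549 with the block). ADAM17 itself was at 50.5 to 56.3 CPM with vehicle and 53.2 to 58.9 CPM with TGFβ (FDR 0.793), and ADAM10 and ADAM9 had FDRs of 0.840 and 0.848.

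Of 24 adaptors and kinases, all were tested, 2 rose and 1 fell, where 3.11% and 1.01% of all tested genes did. With the block 5 rose and 2 fell, against 8.08% and 3.75% of all tested genes, the added genes being PLCG1 (FDR 0.0228), MAPK3 (FDR 0.0119), AKT1 (FDR 0.00754) and, lower, SOS1 (FDR 0.00578). SOS2, an exchange factor that activates Ras, rose from 28.1 ± 2.71 to 41.5 ± 2.00 CPM (log2 fold change 0.56, edgeR FDR 0.0065). GAB1, a docking protein for PI3 kinase, rose with a log2 fold change of 0.47 (FDR 0.027), and lost its call without vehicle culture 2 or 3 or TGFβ culture 1 or 2 (FDR from 0.0781 to 0.123). PIK3R1, the regulatory subunit of PI3 kinase, fell from 39.3 ± 6.54 to 25.0 ± 0.822 CPM (log2 fold change -0.65, FDR 0.0105).

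Of 20 negative regulators, 1 rose and 2 fell, where 3.11% and 1.01% of all tested genes did. With the block 3 rose and 3 fell, against 8.08% and 3.75%, with CBL (FDR 0.0185), SPRY4 and SPRY1 added. DUSP6, the phosphatase that inactivates ERK, fell from 53.9 ± 7.14 to 31.8 ± 8.46 CPM (log2 fold change -0.76, standard error 0.17, edgeR FDR 0.0355). Its call was lost without vehicle culture 1, 2 or 3 or TGFβ culture 1 or 3 (FDR from 0.0556 to 0.204), with no filter at all (FDR 0.261) and when 10 reads were required in every culture (FDR 0.0516). LRIG1, a membrane protein that promotes the breakdown of ErbB receptors, fell from 34.7 ± 3.93 to 23.7 ± 1.19 CPM (log2 fold change -0.55, FDR 0.00995). PTPRJ, a receptor phosphatase, rose with a log2 fold change of 0.76 (FDR 0.0467), and the call was lost without vehicle culture 1, 2 or 3 or TGFβ culture 1 or 2 (FDR from 0.0681 to 0.214), with total-count scaling (FDR 0.0712) and with limma-voom (FDR 0.0526). The Sprouty genes SPRY1, SPRY2 and SPRY4 had log2 fold changes of -0.26, -0.13 and 0.35 and FDRs of 0.511, 0.748 and 0.600. With the block the FDR was 0.0103 for SPRY1 and 0.00271 for SPRY4.

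Of 17 genes known to respond to ERK signals, 16 were tested, 5 rose and 2 fell, against 3.11% and 1.01% of all tested genes. The median log2 fold change of the list was 0.42. With the block 9 rose and 3 fell, against 8.08% and 3.75% of all tested genes, with EGR1 (FDR 0.0114), IER3 (FDR 2.96e-05), PLAUR (FDR 0.0452), MCL1 (FDR 0.000288) and, lower, KLF6 (FDR 0.0485) added. Many of them also respond to other signals, and several are known TGFβ targets. KLF10, a transcription factor named as a TGFβ-inducible early gene, rose from 14.4 ± 1.33 to 41.5 ± 4.40 CPM (log2 fold change 1.53, edgeR FDR 5.03e-05). ZFP36, which degrades cytokine mRNAs, rose by a log2 fold change of 1.39 (FDR 0.000213), CCND1, which encodes cyclin D1, by 0.68 (FDR 0.000689) and the immediate early gene IER2 by 0.70 (FDR 0.00757). The remaining calls, named after their values were seen, were DUSP1 at 0.59 (FDR 0.0125) and PHLDA1 at -0.48 (FDR 0.0114). MYC, a growth-promoting transcription factor, fell from 134 ± 6.47 to 63.7 ± 5.28 CPM (log2 fold change -1.08, FDR 9.92e-05). Of the 9 tested genes without a call, 4 were named after their values were seen. These were FOS, EGR1 and the ETS factors ETV4 and ETV5, with FDRs of 0.895, 0.484, 0.555 and 0.938. EGR1 passed with the block, as given above.

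**Figure D5:**
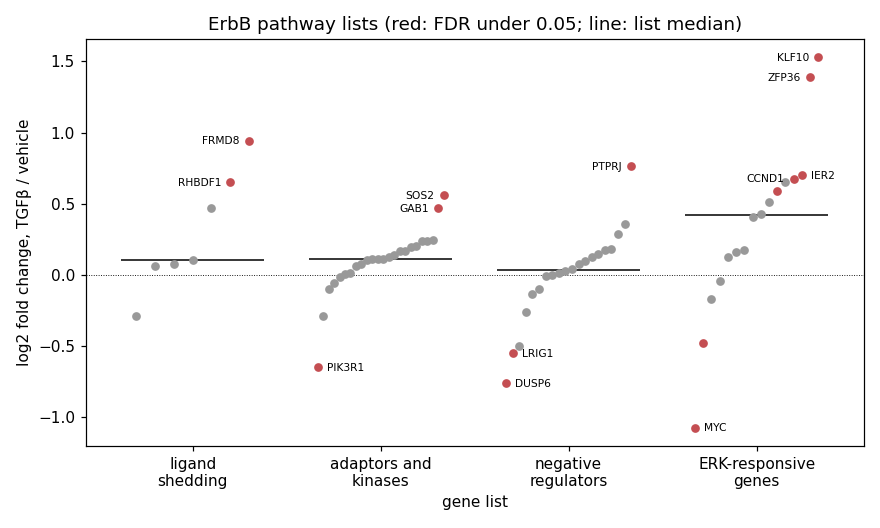
Log2 fold change (TGFβ against vehicle) of the tested genes of 4 pathway lists, ordered by value within a list, with lines at the list medians. Genes past an FDR of 0.05 are red, and the named ones are labelled. KLF10 at 1.53 and MYC at -1.08 mark the ends of the range.

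The tested genes whose pattern over the 6 cultures was most like that of ERBB2 were TRIM47, P2RY2 and RP11-326F20.5. Likeness was measured as the root mean square difference of log2 CPM centred on each gene's vehicle mean, which was 0.0477, 0.0644 and 0.0713. Their log2 fold changes were 0.93, 0.89 and 0.83. The measure includes the shift with TGFβ, so fold changes near that of ERBB2 follow from the choice of genes.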

How the data were processed

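RNA from 3 vehicle and 3 TGFβ cultures of HepG2 cells was sequenced as paired reads of 51 bases (TruSeq v2 mRNA kit). The authors aligned reads to hg19 and deposited raw counts per gene from MAPRseq without normalization, with RPKM beside them. The submitters' processing notes name TopHat2 2.0.6, HTSeq and bcl2fastq. Not given in the sources used here: the annotation release, the strand setting and the rule for reads on overlapping genes. The deposited RPKM values served only for levels and ratios between genes of a culture.

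Counts were tested here with edgeR 4.0.16 (limma 3.58.1, R 4.3.3): TMM, filterByExpr, the robust quasi-likelihood test with treatment as its only term, Benjamini-Hochberg adjustment over 22747 genes. The standard error of a log2 fold change was its size over the root of F. Steps were tested on simulated data. The alternatives were other scaling, filters, DESeq2 1.42.0, limma-voom, leaving out each culture, and the culture number as a block. Same-numbered cultures deviated together across genes (correlations 0.366, 0.227 and 0.316, and at most 0.0101 between different numbers), so blocked values stand beside each call that the block changed. Same-group libraries differed beyond sampling noise, with 21.0 to 46.2 as the chi-square per gene. The study's methods call the sequenced samples biological replicates, and p-values measure the spread between these cultures of 1 cell line. Strands are from GENCODE on GRCh37, promoters from RefSeq. Intervals on reads cover counting error only.

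The members and gene lists were chosen with earlier results of these data known. Named genes were the 10 members, overlapping or copied genes, at most 5 called genes per list with the largest change, and the 3 genes most like the called member with the largest change. Genes outside this rule were named after their values were seen.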

Additional observations from a re-analysis of the deposited data

How the results depend on the processing

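ERBB2 and ERRFI1 kept their direction and their call under all 13 alternatives, with log2 fold changes from 0.79 to 0.97 and from 0.63 to 0.74. HBEGF, TGFA, EGFR, EREG and ERBB3 kept their direction under all 13, and NRG1, which got no adjusted p from DESeq2 and failed the filter of 10 reads in every culture, reversed without TGFβ culture 1, to 0.15, and ranged from -0.52 to 0.15 without single cultures. The cause was not tested. With the replicate block, the number of members that rose was 5, the pathway lists had 20 higher and 8 lower genes, and all tested genes 1837 higher and 853 lower, against 707 and 230 without it. Without a filter 366 genes of all were lower and with DESeq2 382. Leaving out single cultures gave between 2 and 3 members higher, between 6 and 11 list genes higher and between 3 and 5 lower, and between 394 and 778 of all genes higher and between 91 and 220 lower, with fewer samples in each fit. The block changed no call of a member other than HBEGF and TGFA. Total-count scaling moved the median log2 fold change of all genes to -0.05. Read depth limits AREG, BTC and NRG1, which had at most 17 reads in a culture.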
